A study of Homo sapiens with 6 samples.

Results

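The genes described here are 41 named members of the integrated stress response and the unfolded protein response, of the 20263 genes listed in the series. They were chosen by symbol, with earlier results of these data known. All 41 matched 1 gene ID each, and all 41 passed the filter on low counts. RNA of U118 cells was sequenced to measure them. U118 is an established line from a human glioma, which the labels call astroblastoma. The cells fell into 3 groups, all labelled day 2: 4 libraries given siRNA against RIPK2 (siRIPK2_1 to siRIPK2_4), 1 given a control siRNA (siNC) and 1 labelled wild type (WT), with no siRNA named. RIPK2 encodes a kinase that carries signals from the bacterial sensors NOD1 and NOD2. The labels do not say whether the 4 siRIPK2 libraries are different siRNAs, separate cultures or repeats, so p-values measure only the spread between these libraries, and each control has no replicate. All libraries come from 1 cell line.

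The integrated stress response starts when kinases such as PERK and GCN2 phosphorylate the translation factor eIF2, which slows protein synthesis while the transcription factor ATF4 is translated more. ATF4 then switches on genes for amino acid synthesis and transport and, under lasting stress, for growth arrest and cell death. The unfolded protein response adds the sensors IRE1 and ATF6 in the membrane of the endoplasmic reticulum (ER). With the transcription factor XBP1 they raise ER chaperones and the machinery that removes misfolded proteins. Secretory cells and cancers with a high protein load, glioma among them, use both responses. ATF4 is controlled largely in translation and XBP1 by splicing, and neither can be read from gene counts. The members were sorted into 6 sensors and transducers, 22 targets on the ATF4 side (the ATF4 arm) and 13 targets of ATF6 and XBP1 (the ER arm). HERPUD1, placed in the ER arm, is known to be served by both.

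Total counts per library ranged from 33540619 to 45309423, and the lowest count of any member in any library was 190, for which counting error alone is about 7.25%. RIPK2 was at 3.86, 11.9, 6.27 and 4.32 CPM (counts scaled to library size, with TMM factors) in siRIPK2_1 to siRIPK2_4, against 43.4 CPM in siNC and 56.8 CPM in WT. The knockdown libraries averaged 15.1% of the siNC level, with most RIPK2 transcript left in siRIPK2_2. Of 10 astrocyte and glioma markers 5 were above 1 CPM in every library, with VIM from 3813 to 7573 CPM, whereas S100B and ALDH1L1 were at or near 0, GFAP did not exceed 1.09 CPM and AQP4 had no count. Of 10 macrophage and microglia markers 2 were above 1 CPM in every library, CD68 at 91.1 to 164 CPM and CSF1R at 1.18 to 3.69 CPM, while AIF1, C1QA, C1QB and TYROBP had no count in any. The 10 together summed to between 108 and 150 CPM in the siRIPK2 libraries, 98 CPM in siNC and 168 CPM in WT. Exons of 11 of the 41 members overlap another listed gene (6 in the ATF4 arm and 5 in the ER arm). The strand setting of the counting is not given in the sources used here, so their reads may include those of a neighbour.

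No member passed the test for a difference between the RIPK2 knockdown and a control, but the 2 arms came apart in a single knockdown library. In siRIPK2_3 the ER arm was the lowest of the 6 libraries in 13 of 13 genes. Their levels there were 36.4% to 69.2% of the median of the other 5 libraries. The ATF4 arm stayed near the mean of the 6 libraries in siRIPK2_3, at a median log2 level of -0.04 relative to it. Of its 22 genes, 10 lay above that mean. The ATF4 transcript, placed in neither arm, was at its highest in siRIPK2_3. The ATF4 arm was high in siRIPK2_2 and low in siRIPK2_1, a difference that 11 of the 13 ER arm genes shared in direction. Since a single library cannot be tested against the rest, these patterns are descriptions of the libraries.

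**Figure D1:**
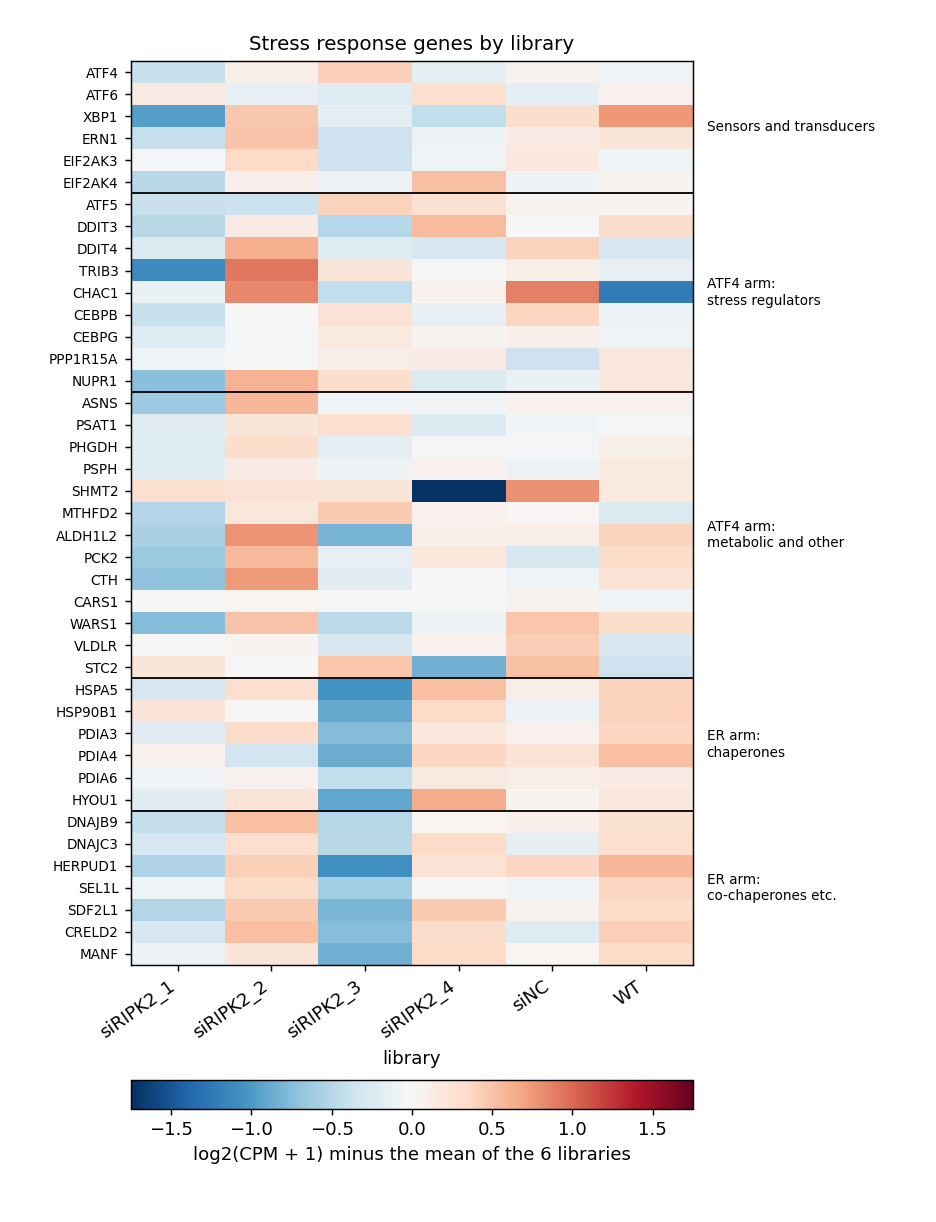
Level of the 41 genes in each library as log2(CPM + 1) minus the mean of the 6 libraries (colour), with genes in rows by role and libraries in columns. The block of 13 ER arm genes is blue in siRIPK2_3, and SHMT2 is lowest in siRIPK2_4.

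The tests did not separate the siRIPK2 libraries as a group from either control. In edgeR's quasi-likelihood test with Benjamini-Hochberg adjustment, 0 of 41 members passed the adjusted threshold of 0.05 against siNC or against WT, where 0% of all 14306 genes tested passed in each comparison. RIPK2 itself was among the genes that did not pass, although the knockdown libraries averaged 15.1% of its siNC level. The median SE of a member's log2 fold change against siNC was 0.434. The lack of a call therefore does not show that a gene was unchanged. At an unadjusted p under 0.05, 0 members were called against siNC, beside 3.56% of all genes higher and 1.21% lower. Against WT 1 was called as higher, beside 0.664% of all genes, and none as lower, beside 0.419%. With both controls together 0 of 41 members passed adjusted, beside 0% of 13901 genes, and none had an unadjusted p under 0.05, beside 1.32% of all genes higher and 1.23% lower. In DESeq2 and limma-voom no member passed in any of these comparisons either. No member had all 4 siRIPK2 libraries above both controls (4.96% of all genes did) or all 4 below both (5.5% of all genes did).

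The ATF4 arm had a median log2 fold change of -0.05 for siRIPK2 against siNC, with 10 members higher and 12 lower, and the ER arm -0.07, with 5 higher and 8 lower. Over all genes tested the median was 0.02 and 48.3% were lower. Leaving out siRIPK2_3 turned the ER arm median to 0.13, and leaving out siRIPK2_1 turned the ATF4 arm median to 0.07. Against WT the ATF4 arm was at -0.04, with 10 members higher and 12 lower, and at 0.08 without siRIPK2_1 or 0.02 without siRIPK2_4. In the ER arm the median against WT was -0.39 and all 13 members had a log2 fold change below 0, as did 48.1% of all genes tested. In 5 of the 13, all 4 siRIPK2 libraries lay below WT, beside 12.8% of all genes. Without siRIPK2_3 the ER arm median against WT was -0.18, with 12 of 13 still below 0. The siNC library was also below WT in all 13, with a median of -0.29, beside 50.2% of all genes. Both comparisons share the 1 WT library.

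**Figure D2:**
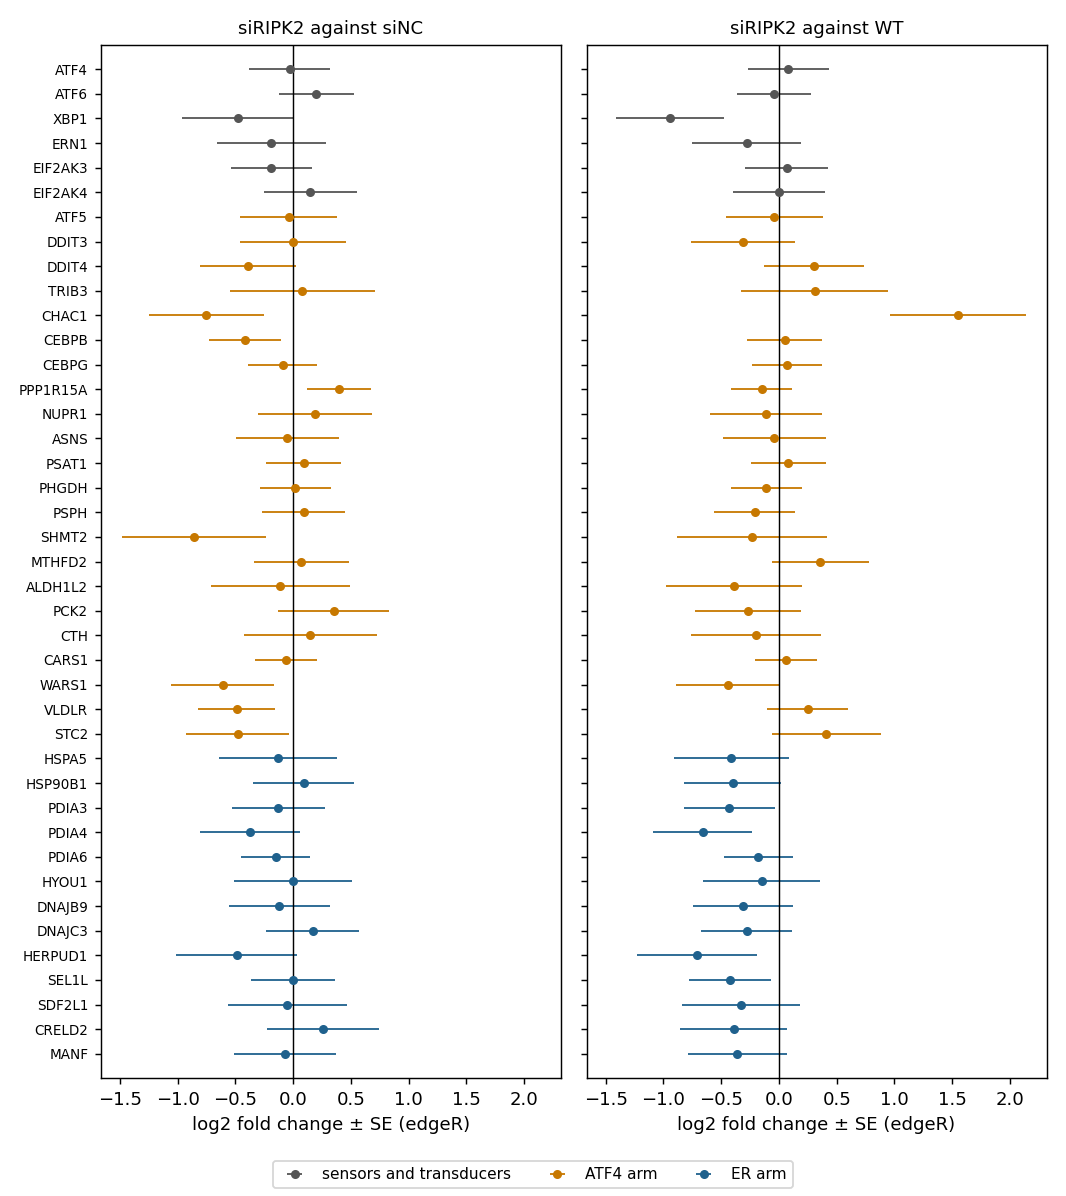
Log2 fold change with its SE (edgeR) for each of the 41 genes in siRIPK2 against siNC (left) and siRIPK2 against WT (right), coloured by group. Against WT all 13 ER arm genes lie left of 0 with a median of -0.39, while CHAC1 lies at 1.55.

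Among the sensors and transducers, ATF4 (ENSG00000128272, GRCh38 chromosome 22, 39519695 to 39522685, plus strand) was at 490.5, 699, 862 and 574 CPM in siRIPK2_1 to siRIPK2_4, against 669 CPM in siNC and 622 CPM in WT. The knockdown libraries lay on both sides of the controls, with siRIPK2_3 highest and siRIPK2_1 lowest. ERN1, which encodes the sensor IRE1, was at 6.68, 13.4, 6.91 and 8.61 CPM in the knockdown libraries, against 10.2 CPM in siNC and 10.8 CPM in WT. It was highest in siRIPK2_2, the only knockdown library above the controls. EIF2AK3, which encodes the ER kinase PERK, was at 30.8, 40.1, 24.1 and 29.5 CPM, against 35.6 CPM in siNC and 29.7 CPM in WT. EIF2AK4, which encodes the amino acid sensor GCN2, was at 98.1, 147, 130.3 and 199 CPM, against 129.6 CPM in siNC and 143 CPM in WT. The ER membrane sensor ATF6 was at 86.5, 70.5, 66.1 and 95.8 CPM, against 69.4 CPM in siNC and 81.9 CPM in WT. For all 3, the knockdown libraries spread around both controls. Per kilobase of annotated exon the transducers covered a wide span of levels, with a mean over the 6 libraries of 973 TPM (counts per exon length, scaled to the library) for ATF4 and 3.26 TPM for ERN1.

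XBP1 (ENSG00000100219, chromosome 22, 28794555 to 28800597, minus strand) was at 58.1, 158, 102 and 84.5 CPM in siRIPK2_1 to siRIPK2_4, against 141 CPM in siNC and 194 CPM in WT. The levels of siRIPK2_1, siRIPK2_3 and siRIPK2_4 were below both controls, and siRIPK2_2 lay between siNC and WT. The log2 fold change was -0.48 against siNC (SE 0.48, adjusted p = 1 in edgeR) and -0.94 against WT (SE 0.467, unadjusted p of 0.0798 and adjusted p = 1), and it ranged from -1.24 to -0.75 against WT when a siRIPK2 library was left out. Its order over the libraries was not that of the ER arm, since XBP1 was lowest in siRIPK2_1 and the ER arm in siRIPK2_3.

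In the ER arm, the chaperones of the ER lumen had the highest levels. HSPA5 (ENSG00000044574, chromosome 9, 125234853 to 125241330, minus strand) encodes BiP, which binds nascent chains and holds the stress sensors inactive. It was at 4810, 7223, 2852 and 8509 CPM in siRIPK2_1 to siRIPK2_4, against 6392 CPM in siNC and 7745 CPM in WT. The siRIPK2_3 level was 39.5% of the median of the other 5 libraries, while siRIPK2_4 was above both controls. HSP90B1, the ER form of HSP90, was at 2445, 2129, 1130 and 2651 CPM, against 1959 CPM in siNC and 2761 CPM in WT. HYOU1, an exchange factor and holdase that works with BiP, was at 692, 929, 423 and 1251 CPM, against 823 CPM in siNC and 916 CPM in WT. In both genes siRIPK2_3 was alone at the bottom, at 46.2% and 46.1% of the median of the others.

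The disulfide isomerases were lowest in siRIPK2_3 too, with more varied dips. PDIA4 was at 443.5, 333, 231 and 544 CPM in siRIPK2_1 to siRIPK2_4, against 500.1 CPM in siNC and 611 CPM in WT. It was next lowest in siRIPK2_2, unlike most of the arm, and its log2 fold change was -0.37 against siNC (SE 0.433, adjusted p = 1 in edgeR) and -0.66 against WT (SE 0.425, adjusted p = 1). PDIA3, which folds glycoproteins with calnexin and calreticulin, was at 761, 1083, 514 and 990.3 CPM, against 914 CPM in siNC and 1126 CPM in WT. PDIA6 varied least, at 681, 742, 525 and 785 CPM, against 758.5 CPM in siNC and 775 CPM in WT. Its siRIPK2_3 level was 69.2% of the median of the others, the mildest dip of the 13 genes.

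The co-chaperones, degradation factors and secreted proteins of the ER arm dipped in siRIPK2_3 as well. HERPUD1 (ENSG00000051108, chromosome 16, 56932048 to 56944863, plus strand), which brings ubiquitin ligases to misfolded proteins, was at 101, 197, 68.9 and 173 CPM in siRIPK2_1 to siRIPK2_4, against 189.5 CPM in siNC and 221 CPM in WT. Its siRIPK2_3 level was the lowest of all members relative to the other libraries, at 36.4% of their median. The log2 fold change of HERPUD1 in the siRIPK2 group was -0.49 against siNC (SE 0.525, adjusted p = 1 in edgeR) and -0.71 against WT (SE 0.518, adjusted p = 1). SEL1L, the scaffold of the HRD1 ligase, was at 319.5, 420.1, 221 and 341 CPM, against 325 CPM in siNC and 437 CPM in WT. DNAJB9, a co-chaperone that restrains IRE1, was at 32.2, 62.7, 30.3 and 44.2 CPM, against 45.9 CPM in siNC and 52.4 CPM in WT, so that siRIPK2_1 and siRIPK2_3 were nearly level.

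DNAJC3, a co-chaperone of BiP, was at 71.5, 109, 62.6 and 113 CPM, against 79.3 CPM in siNC and 108 CPM in WT. SDF2L1, another partner of BiP, was at 79.3, 155, 64.7 and 155 CPM, against 142.5 CPM in WT, with siNC between siRIPK2_1 and WT. CRELD2, a secreted ER stress protein, was at 95.7, 168, 69.1 and 145 CPM, against 99.4 CPM in siNC and 157 CPM in WT. MANF, a secreted neurotrophic factor, had levels of 181, 223, 107 and 246 CPM in siRIPK2_1 to siRIPK2_4, 198 CPM in siNC and 243 CPM in WT. These 4 genes shared one order, with siRIPK2_3 lowest and siRIPK2_1 next.

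The dip in siRIPK2_3 covered the whole ER arm. Both arms were drawn up with earlier results of these data known, so the shares given here are descriptions and not independent support. The library siRIPK2_3 was lowest in 13 of 13 genes, where it was lowest in 18.3% of all 14306 genes tested. With genes with overlapping exons set aside, it was lowest in 8 of 8. It was at least 0.5 below the median of the others on the log2(CPM + 1) scale in 13 of 13, with a median of -1.05, while 8.57% of all genes were both lowest in siRIPK2_3 and this far below. Next lowest was siRIPK2_1, in 11 of 13 genes. The highest library was WT in 5 of the 13, beside 9.41% of all genes, siRIPK2_4 in 5, beside 16.3%, and siRIPK2_2 in 3, beside 17.9%. The arm's median level relative to the mean of the 6 libraries was -0.20, 0.30, -0.79 and 0.34 in siRIPK2_1 to siRIPK2_4, against 0.06 in siNC and 0.37 in WT, in log2(CPM + 1). Thus siRIPK2_2 and siRIPK2_4 lay near WT, and the SD over the 4 knockdown libraries was 0.53. The siRIPK2_3 library was also the deepest of the 6, while its TMM factor of 0.997 lay inside the range of the others (0.957 to 1.04), and the part of depth in the dip was not tested.

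**Figure D3:**
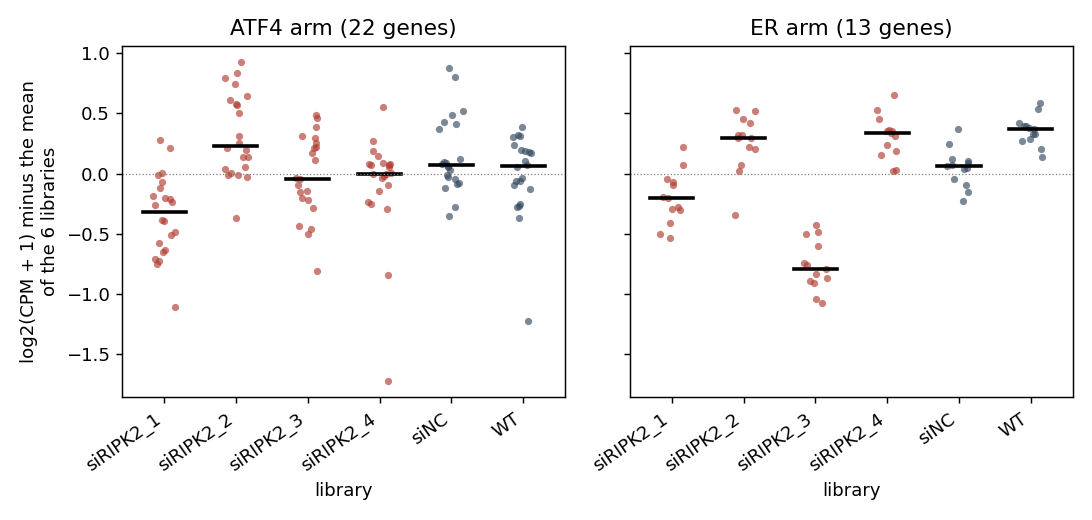
Each point is 1 gene of the ATF4 arm (left) or the ER arm (right), as log2(CPM + 1) minus the mean of the 6 libraries, with black bars for the median. In siRIPK2_3 all 13 ER arm genes lie below 0 with a median of -0.79, and the ATF4 arm median is -0.04.

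Stretches of promoter are shown because they hold binding motifs of the 2 responses. The genes were chosen by symbol, but the arms were sorted as targets of ATF4 or of ATF6 and XBP1. Motif counts by arm are therefore partly set by that sorting and are not independent support for it. RefSeq windows from 250 bases before to 50 bases after the gene start (GRCh38.p14) matched 36 of the 41 members, and PSPH, SHMT2, ALDH1L2, NUPR1 and PDIA3 had no entry. Searched on both strands were the ER stress response element (ERSE, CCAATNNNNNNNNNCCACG), its second form (ERSE-II, ATTGG and CCACG with 1 base between), the unfolded protein response element (UPRE, TGACGTGG) and the C/EBP-ATF response element bound by ATF4 (CARE, TGATGNAA). The exact ERSE was found in 0.0769% of all 35116 promoters and in 3 of 12 ER arm promoters, namely HSPA5, HSP90B1 and CRELD2, and in that of XBP1. ERSE-II was found in 0.0541% of all promoters and in 3 of 12 of the ER arm, namely HERPUD1, SDF2L1 and HYOU1. Neither was found in the 18 ATF4 arm promoters. Each line gives 30 bases in the direction of the motif, with its fixed letters in capitals.
HSPA5 ERSE: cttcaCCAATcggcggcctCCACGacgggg
HSP90B1 ERSE: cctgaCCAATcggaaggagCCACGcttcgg
CRELD2 ERSE: tatggcCCAATccgagttcgCCACGagagg
XBP1 ERSE: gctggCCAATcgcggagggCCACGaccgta
HERPUD1 ERSE-II: cggacgccgATTGGgCCACGttgggagagt
SDF2L1 ERSE-II: gagggttttgATTGGtCCACGcttccgagg
HYOU1 ERSE-II: gcgcgtactcATTGGaCCACGtcccaggcc

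These windows lie at chr9:125241385-125241414 on the minus strand for HSPA5, chr12:103930211-103930240 on the plus strand for HSP90B1 and chr22:49918549-49918578 on the minus strand for CRELD2. The others lie at chr22:28800597-28800626 on the minus strand for XBP1, chr16:56932016-56932045 on the plus strand for HERPUD1, chr22:21642105-21642134 on the minus strand for SDF2L1 and chr11:119057264-119057293 on the plus strand for HYOU1. HSP90B1 and HYOU1 each held a second copy, and the second ERSE-II of HYOU1 overlapped its UPRE, the only UPRE among the members. The UPRE was found in 0.729% of all promoters. The 6 ER arm genes with an ERSE or ERSE-II were at 36.4% to 47.8% of the median of the other libraries in siRIPK2_3, and the 6 with neither at 46.2% to 69.2%. Of 17 tested genes outside the members whose promoter holds either motif, 4 were lowest in siRIPK2_3 (23.5%, beside the 18.3% over all genes), among them CALR, which encodes the chaperone calreticulin. These matches are descriptions of the sequence in 1 window per gene, not measured binding.

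**Figure D4:**
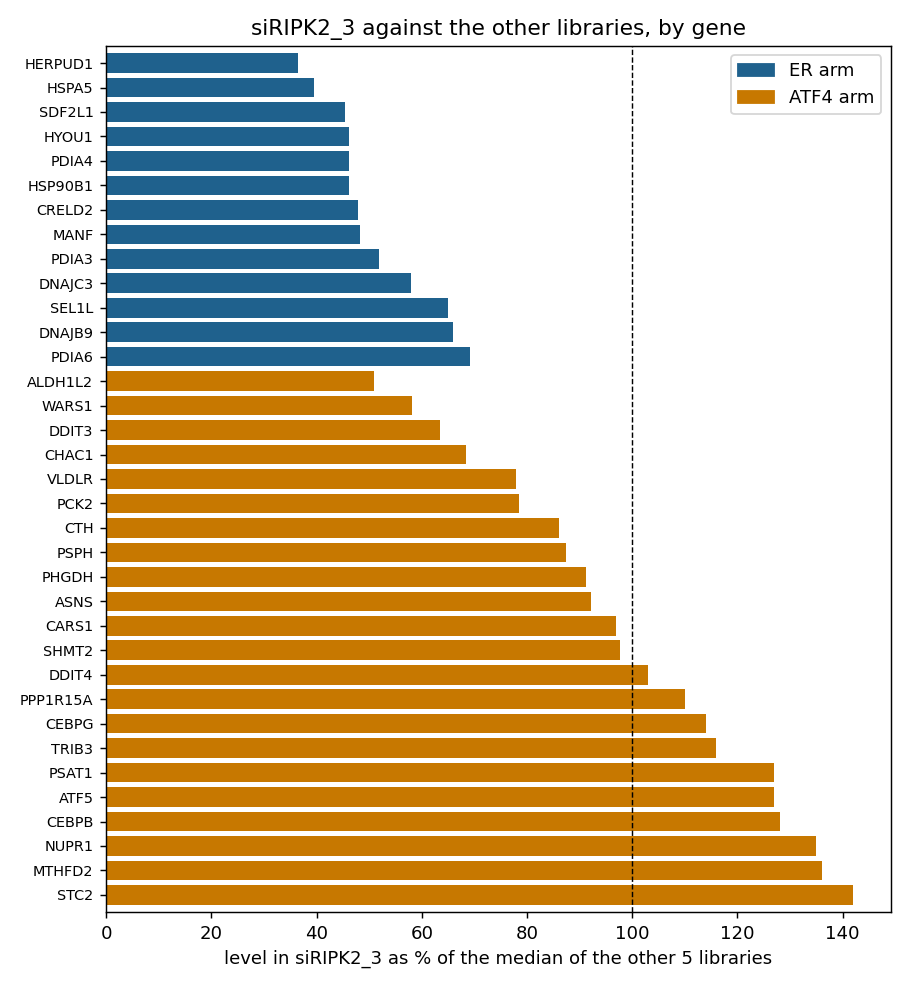
Level in siRIPK2_3 as a percentage of the median of the other 5 libraries for each gene of the ER arm (blue) and the ATF4 arm (orange), with a dashed line at 100%. ER arm genes range from 36.4% (HERPUD1) to 69.2% (PDIA6), whereas ATF4 arm genes range from 51% (ALDH1L2) to 142% (STC2).

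As a whole the ATF4 arm did not share the dip. In siRIPK2_3 its median was -0.04 relative to the mean of the 6 libraries. Of its 22 genes, 3 were lowest there (18.3% over all genes). By log2(CPM + 1), 12 of the 22 lay below the median of the other 5 libraries. These were 10 of the 13 metabolic and other targets (group median -0.13) and 2 of the 9 stress regulators (group median 0.18). ALDH1L2 (51%), WARS1 (58.1%), DDIT3 (63.5%) and CHAC1 (68.4% of that median) were within the ER arm's span of 36.4% to 69.2%. The extremes of the ATF4 arm lay in 2 other knockdown libraries. The library siRIPK2_1 was lowest in 12 of 22 genes, beside 21.5% of all genes, and siRIPK2_2 highest in 9 of 22, beside 17.9% of all genes. None of the 22 was highest in siRIPK2_1, beside 20.8% of all genes, 4 were highest in siRIPK2_3, beside 20.4%, and 6 in siNC, beside 15.2%. The median was -0.32, 0.23, -0.04 and 0.00 in siRIPK2_1 to siRIPK2_4, against 0.07 in siNC and 0.06 in WT, with an SD of 0.23 over the knockdown libraries. In 20 of the 22 genes siRIPK2_2 was above siRIPK2_1, as in 50.6% of all genes tested, and likewise in 11 of the 13 ER arm genes. The difference between the arm medians (ATF4 arm minus ER arm) was -0.12, -0.07, 0.75 and -0.34 in siRIPK2_1 to siRIPK2_4, against 0.01 in siNC and -0.31 in WT. Both arms were thus higher in siRIPK2_2 than in siRIPK2_1, and they lay farthest apart in siRIPK2_3.

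Of the stress regulators in the ATF4 arm, TRIB3, a pseudokinase that feeds back on ATF4, spanned the widest range among the knockdown libraries. It was at 108.5, 448, 273 and 235.5 CPM in siRIPK2_1 to siRIPK2_4, against 252 CPM in siNC and 214.5 CPM in WT, which is 4.13-fold between siRIPK2_2 and siRIPK2_1. NUPR1, a small chromatin-associated stress protein, was at 72.1, 184, 149 and 100.4 CPM, against 111 CPM in siNC and 137 CPM in WT, again highest in siRIPK2_2 and lowest in siRIPK2_1. DDIT3, which encodes the pro-apoptotic factor CHOP and overlaps MARS1 and MBD6, was at 47.9, 74.3, 47.2 and 99.4 CPM, against 67 CPM in siNC and 83.5 CPM in WT. Its highest library was siRIPK2_4 and its lowest siRIPK2_3, nearly level with siRIPK2_1, so its knockdown values lay on both sides of the controls. The siRIPK2_3 level of DDIT3 was 63.5% of the median of the other libraries, within the span of the ER arm (36.4% to 69.2%).

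CHAC1 (ENSG00000128965, chromosome 15, 40952962 to 40956519, plus strand), which breaks down glutathione, stood apart in WT. It was at 12.5, 25.2, 9.86 and 14.4 CPM in siRIPK2_1 to siRIPK2_4, against 26 CPM in siNC and 5.27 CPM in WT. All 5 transfected libraries were above WT, as for 1 other member, CARS1, beside 8.21% of all genes tested. In 8 members, XBP1, PPP1R15A, PSPH, HSP90B1, PDIA3, PDIA4, HERPUD1 and SEL1L, all 5 were below WT, beside 9.41% of all genes tested. The log2 fold change of siRIPK2 was 1.55 against WT (SE 0.585, unadjusted p of 0.0299, adjusted p = 1 in edgeR) and -0.75 against siNC (SE 0.494, adjusted p = 1). For siNC against WT it was 2.30 (SE 0.692, unadjusted p of 0.0109, adjusted p = 1 in edgeR and 0.278 in DESeq2). CHAC1 was the only member with an unadjusted p under 0.05 in these comparisons, and in siNC against WT 0 of 41 passed adjusted, beside 0% of all genes, while 0.643% of all genes were higher and 2.09% lower at an unadjusted p under 0.05.

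Other stress regulators were closer to the controls. PPP1R15A, which encodes GADD34, the phosphatase subunit that ends the eIF2 block, was at 257, 265, 292 and 298 CPM in siRIPK2_1 to siRIPK2_4, against 210.4 CPM in siNC and 308.5 CPM in WT. All 4 knockdown libraries were between the 2 controls. The growth inhibitor gene DDIT4 was at 102, 191, 105 and 99.6 CPM, against 162.5 CPM in siNC and 101 CPM in WT, with siRIPK2_2 alone above the rest of the knockdown libraries. CEBPB, a partner of ATF4 at its target sites, was at 148, 195, 231 and 175 CPM, against 251 CPM in siNC and 181 CPM in WT, and was below siNC in all 4. ATF5 ranged from 17.8 to 31.3 CPM and CEBPG from 40.1 to 53.2 CPM over the knockdown libraries, both with siRIPK2_1 lowest and siRIPK2_3 highest, the order of ATF4 itself at its ends.

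**Figure D5:**
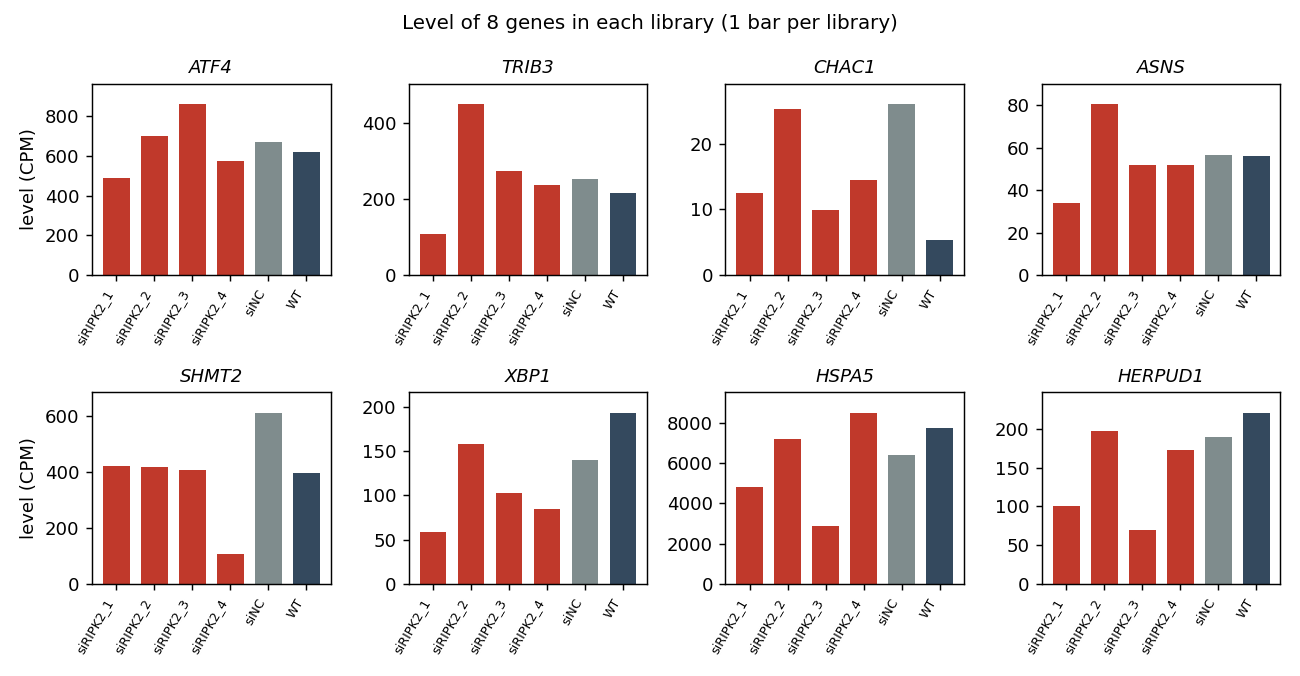
Level in CPM of 8 genes, 1 bar per library, with siRIPK2 in red, siNC in grey and WT in dark blue. TRIB3 and ASNS are highest in siRIPK2_2 and lowest in siRIPK2_1, HSPA5 and HERPUD1 are lowest in siRIPK2_3, SHMT2 is lowest in siRIPK2_4, and CHAC1 is lowest in WT.

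Among the metabolic targets, ASNS, which makes asparagine, was at 34.1, 80.6, 51.9 and 52.1 CPM in siRIPK2_1 to siRIPK2_4, against 56.7 CPM in siNC and 56.3 CPM in WT. CTH, which makes cysteine from cystathionine, was at 6.31, 19, 9.39 and 10.9 CPM, against 10.3 CPM in siNC and 13.1 CPM in WT. PCK2, the mitochondrial PEP carboxykinase, was at 17, 40.8, 24.5 and 31.2 CPM, against 22.3 CPM in siNC and 34.1 CPM in WT. In all 3, siRIPK2_2 was highest and siRIPK2_1 lowest of the 6 libraries, by 2.37-fold, 3.01-fold and 2.4-fold. ALDH1L2, a mitochondrial folate enzyme that overlaps NOPCHAP1, was at 17.6, 46.9, 14.8 and 28.4 CPM, against 29.1 CPM in siNC and 35.2 CPM in WT, and here siRIPK2_3 was lowest. The CARE was found in the promoters of ASNS, CHAC1 and CARS1 of the 18 ATF4 arm promoters matched and in that of HERPUD1, beside 3.62% of all promoters. The sites of the first 2 and of HERPUD1 are shown, since they set a metabolic and a stress target of ATF4 beside the ER arm gene that both responses serve.
ASNS CARE: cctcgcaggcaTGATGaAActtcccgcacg
CHAC1 CARE: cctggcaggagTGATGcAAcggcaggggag
HERPUD1 CARE: tgggcacgggcTGATGcAAcccgccgcgtc

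They lie at chr7:97872458-97872487, chr15:40953251-40953280 and chr16:56931955-56931984 in the order listed, all on the minus strand of GRCh38.p14. The capitals mark the fixed letters of the motif. In siRIPK2_3 ASNS was at 92.2%, CHAC1 at 68.4% and HERPUD1 at 36.4% of the median of the other libraries.

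PHGDH, the first enzyme of serine synthesis, spanned 1.43-fold over the 6 libraries. It was at 164.5, 236, 171 and 187 CPM in siRIPK2_1 to siRIPK2_4, against 187 CPM in siNC and 205 CPM in WT. The next enzymes, PSAT1 and PSPH, ranged from 151 to 218 CPM and from 8.93 to 11.6 CPM over the knockdown libraries, a span that held the siNC level of both. MTHFD2, the mitochondrial folate dehydrogenase, spanned 2.01-fold and was at 19.5, 32.4, 39.1 and 29.7 CPM, against 28.8 CPM in siNC and 23.5 CPM in WT. SHMT2 (ENSG00000182199, chromosome 12, 57229327 to 57234935, plus strand), which converts serine to glycine in mitochondria and overlaps NDUFA4L2, was at 421.5, 415, 405 and 105 CPM, against 609.5 CPM in siNC and 394 CPM in WT. Its span of 5.83-fold was the widest of the 41 members. The siRIPK2_4 library was far below the other 3, which lay close to WT.

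Of the tRNA synthetases, CARS1 was the steadiest member, from 109.6 to 115.7 CPM in the knockdown libraries, against 117 CPM in siNC and 108 CPM in WT. WARS1, which overlaps WDR25, was at 84.5, 203, 104 and 134 CPM, against 201 CPM in siNC and 179 CPM in WT. Its log2 fold change was -0.61 against siNC (SE 0.448, adjusted p = 1 in edgeR) and -0.44 against WT (SE 0.453, adjusted p = 1). The lipoprotein receptor gene VLDLR was at 13.7, 14.4, 11.2 and 14.7 CPM, against 19 CPM in siNC and 11.3 CPM in WT. STC2, which encodes a secreted glycoprotein hormone, was at 368.5, 315, 446 and 177 CPM, against 455 CPM in siNC and 246 CPM in WT. In both genes all 4 knockdown libraries were below siNC, which was the highest of the 6. In all, 6 of the 22 ATF4 arm genes had all 4 siRIPK2 libraries below siNC, beside 17.3% of all genes tested, and none of the 13 ER arm genes did.

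Other genes of these pathways were read from lists chosen by function, with earlier results of these data known. They are therefore not independent support for the patterns above. Of 18 further ER folding genes, 0 passed in edgeR in any comparison, as did 0% of all genes. Against siNC 11 were lower and 7 higher, beside 48.3% of all genes lower. Against WT 18 of 18 were lower (median -0.25), beside 48.1% of all genes. The siNC library was also below the same WT library in 13 of the 18, beside 50.2% of all genes. The library siRIPK2_3 was lowest in 10 of the 18, beside 18.3% of all genes. In 6 of these it was at least 0.5 below the median of the others on the log2(CPM + 1) scale. Of all genes, 8.57% were both lowest there and this far below. CALR was at 1742, 2506, 1344 and 2413 CPM in siRIPK2_1 to siRIPK2_4, against 2137 CPM in siNC and 2593 CPM in WT. In the list of 19 ER-associated degradation genes siRIPK2_3 was lowest in 6, and EDEM1, a mannosidase-like factor that extracts glycoproteins for degradation, was at 36.2% of the median of the others. In the list of 20 translocation and secretory traffic genes it was lowest in 4. There siRIPK2_1 was lowest in 10, beside 21.5% of all genes, and siRIPK2_2 highest in 11, beside 17.9%. These are counts only, and the lists were not tested against each other.

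The 4 lists of stress genes outside the ER were read in the same way. The library siRIPK2_3 was lowest in 2 of 12 cytosolic heat shock genes and in 0 of 10 mitochondrial chaperones and proteases. It was lowest in 2 of 16 other aminoacyl-tRNA synthetases and in 4 of 16 further genes of eIF2 signalling, beside 18.3% of all genes tested. Among these 4, PPP1R15B was at 39.6% of the median of the other libraries, beside 39.5% for HSPA5. Of the 16, only 1 was both lowest there and at least 0.5 below that median in log2(CPM + 1), beside 8.57% of all genes. The median of siRIPK2_3 against the median of the other libraries, on the log2(CPM + 1) scale, was -0.23 for heat shock genes, of which 9 of 12 were below 0, 0.10 for eIF2 signalling, 0.03 for the synthetases and 0.14 for the mitochondrial list. It was -0.39 for the ER folding list, -0.11 for degradation and -0.12 for translocation, so the heat shock list lay below both of these. In the 4 lists outside the ER no gene passed in edgeR in any comparison. The cytosolic chaperone gene HSP90AA1 was at 1493, 850.1, 1388 and 1479 CPM in siRIPK2_1 to siRIPK2_4, against 683 CPM in siNC and 1302 CPM in WT (unadjusted p of 0.0392 against siNC, adjusted p = 1 in edgeR). The mitochondrial protease gene LONP1 was at 296, 280, 270 and 295 CPM, against 176 CPM in siNC and 261 CPM in WT (unadjusted p of 0.0368 against siNC, adjusted p = 1). In both genes siNC was the lowest of the 6 libraries. These were the 2 genes with an unadjusted p under 0.05 against siNC among all 7 lists.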

How the data were processed

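RNA was sequenced from 6 libraries of U118 cells. The authors deposited a table of raw read counts per Ensembl gene ID. The submitters' processing notes name the tools bedtools, HISAT2, Trimmomatic and FastQC and the build GRCh38. Their versions, the annotation and the strand setting are not stated in these sources. Symbols, exons and coordinates came from GENCODE 29. Genes passing filterByExpr (minimum count 10) were tested with edgeR 4.0.16 (TMM, quasi-likelihood F test, Benjamini-Hochberg, threshold 0.05) in R 4.3.3. A fit of all 6 libraries in 3 groups left 3 residual degrees of freedom, all from the siRIPK2 libraries, so the lone controls are assumed to vary alike; a fit against both controls left 4. DESeq2 1.42.0 and limma 3.58.1 (voom) were alternatives. Scripts were tested on simulated data. Between libraries, chi-square per degree of freedom was 77.1 to 224, so none was a duplicate. The 41 members, the arms and the 7 lists of other genes were chosen with earlier results of these data known. Genes given library by library were the 6 transducers and those with the lowest p or highest SD in each role. HSP90B1, MANF, DDIT3, NUPR1, ASNS, CTH, PCK2, PHGDH, MTHFD2, ATF5, CEBPG, CARS1, CALR, EDEM1 and PPP1R15B were added after their values were seen. Promoters are RefSeq's (GRCh38.p14). Counting error covers sampling of reads only.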

Additional observations from a re-analysis of the deposited data

Results flagged for a closer look

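In the siRIPK2 group, each of the 41 members was checked for 1 library standing far from the other 3. The check flagged 2 of the 41, near the share of about 1 in 20 that chance gives for normally spread values. Whether these levels spread so was not tested. The share over all genes tested is not given here, so the 2 genes are listed as descriptions only. DDIT4 was at 191 CPM in siRIPK2_2, while the other siRIPK2 libraries lay between 99.6 and 105 CPM. SHMT2 was at 105 CPM in siRIPK2_4, while the others lay between 405 and 422 CPM. Exons of SHMT2 overlap those of NDUFA4L2, and the part of that overlap in the low value was not tested.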

How the results depend on the processing

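Of 379 values recomputed under alternatives, 8, all counts of called genes over the whole table, moved beyond their limit, and 371 did not. The limit was 1.5 times for a count and 1 SD over the siRIPK2 libraries for an arm median. This SD was 0.23 for the ATF4 arm, 0.53 for the ER arm and 0.48 for their difference. It was wider than every such median in the group comparisons, so a median there could fall to 0 within its limit. Leaving out a siRIPK2 library could hardly change the medians of siNC against WT. Among the 371, 8 medians near 0 turned sign. The ATF4 arm median turned to 0.07 against siNC, 0.08 against WT and 0.03 against both controls without siRIPK2_1, and to 0.02 against WT without siRIPK2_4. The ER arm median against siNC turned to 0.13 without siRIPK2_3, and the ATF4 arm level in siRIPK2_3 to 0.01 with offsets for length and GC content. Where edgeR called 0 genes, DESeq2 called 74 for siRIPK2 against siNC, 9 against WT, 11 for siNC against WT and 11 for siRIPK2 against both controls. Against WT, 1 gene was called without the filter on low counts and 1 by limma-voom. Against both controls, leaving out 1 siRIPK2 library gave 0 to 2 calls (2 without siRIPK2_1 and 2 without siRIPK2_2). The cause was not tested, and no member was among the calls of any tool. The difference between the arm medians (ATF4 arm minus ER arm) was 0.35 against WT and 0.11 without siRIPK2_3; against siNC it was 0.02, and turned to -0.16 without siRIPK2_3 or -0.06 with means over members. Another pseudocount cannot change which library is lowest, and a minimum of 5 CPM removed no ER arm gene (lowest mean 44.6 CPM). The ER arm stayed lowest in siRIPK2_3 in 13 of 13 genes under other size factors and offsets for length and GC content. The counts by library and these offsets on levels were added after seeing the data; the other settings were among those first listed for the arm medians. No paired analysis was possible because each control is a single library with no replicate number in its label. The lowest member count of 190 carries a counting error of about 7.25%.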
